A study of Homo sapiens with 6 samples.

Results

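The genes SREBF1, SREBF2, SCAP, INSIG1, INSIG2, MBTPS1, STARD4 and NPC1, which help to set how much cholesterol a cell makes and takes in, were followed in the human leukaemia line MV4-11. They were chosen by symbol for their roles in sterol regulatory element-binding protein (SREBP) control and in cholesterol transport, and all 8 were found among the 26364 genes of the table. All 8 passed the filter on low values and were among the 13297 genes tested. MV4-11 is an established acute myeloid leukaemia line that carries an internal tandem duplication in FLT3, a receptor tyrosine kinase gene. RNA was sequenced from 3 libraries of cells given the vehicle DMSO and 3 libraries of cells given 22d, known from this study as an inhibitor of the deacetylase HDAC8, at 10 nM. Both groups were the same line, with no other agent named, and RNA was taken after 18 hours. Separate cultures are not named in the labels, so each p-value rests on the spread among these libraries, which could be technical only.

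SREBPs are transcription factors made as membrane proteins of the endoplasmic reticulum. When sterols are low, the escort protein SCAP carries them to the Golgi, where the site-1 and site-2 proteases cut the active part free to enter the nucleus, and when sterols are high the INSIG proteins hold SCAP and its cargo back. SREBP-2, from SREBF2, mainly drives genes of cholesterol synthesis and uptake, and the SREBP-1 proteins, from SREBF1, mainly those of fatty acid synthesis. Cholesterol that enters a cell in lipoproteins leaves the lysosome through NPC1, and the soluble carrier STARD4 moves sterol between membranes.

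Cells given 22d held more transcript of 5 of the 8 genes. STARD4 was 10.0-fold higher, INSIG1 6.23-fold, NPC1 2.56-fold, SREBF2 2.16-fold and INSIG2 1.76-fold, as ratios of group means of normalized counts (read counts divided by one size factor per library). SREBF1, SCAP and MBTPS1 did not pass the test, and none of the 8 was called lower. Calls are those of limma with an adjusted p (Benjamini-Hochberg, over all genes tested) under 0.05. With this treatment 28.5% of all tested genes were called higher, 29.6% lower and 58.0% in either direction, so a call by itself is common here. Calls with a rise of at least 2-fold made up 9.90% of tested genes, and 4 of the 8 had one. In the authors' deposited table the log2 fold changes of these 5 genes were 3.23, 2.60, 1.32, 1.10 and 0.78 in the same order. The median log2 fold change from limma was 0.97 over the 8 genes and 0.01 over all tested genes.

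The region before the start of transcription is shown for SREBF2, INSIG1 and STARD4, which rose most among genes with a printable window, and for SREBF1, which did not pass the test. Sequences are from RefSeq (GRCh38.p14), in which all 8 genes were matched, and are written 5′ to 3′ on the gene's strand. Only bases that lie before both the RefSeq start and the outermost GENCODE 29 start are printed. Capitals mark matches to TCACNCCAC (a form of the sterol regulatory element), CACGTG (E-box), CCAAT (NF-Y box) and GGGCGG (Sp1 box), searched on both strands in the 250 bases before the RefSeq start.
SREBF2, chr22:41832855-41833078, plus strand: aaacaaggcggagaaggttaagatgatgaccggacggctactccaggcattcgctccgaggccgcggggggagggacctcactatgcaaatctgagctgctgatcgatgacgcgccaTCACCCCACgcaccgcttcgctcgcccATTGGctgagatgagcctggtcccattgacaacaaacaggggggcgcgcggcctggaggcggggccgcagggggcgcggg
INSIG1, chr7:155297628-155297775, plus strand: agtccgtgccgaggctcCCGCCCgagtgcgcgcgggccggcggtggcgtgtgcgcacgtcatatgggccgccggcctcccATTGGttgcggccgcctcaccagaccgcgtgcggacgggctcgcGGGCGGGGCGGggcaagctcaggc
STARD4, chr5:111512591-111512785, minus strand: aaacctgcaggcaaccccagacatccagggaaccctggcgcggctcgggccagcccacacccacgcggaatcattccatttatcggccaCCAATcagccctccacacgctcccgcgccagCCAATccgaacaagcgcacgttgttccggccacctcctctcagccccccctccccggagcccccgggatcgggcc
SREBF1, chr17:17837003-17837236, minus strand: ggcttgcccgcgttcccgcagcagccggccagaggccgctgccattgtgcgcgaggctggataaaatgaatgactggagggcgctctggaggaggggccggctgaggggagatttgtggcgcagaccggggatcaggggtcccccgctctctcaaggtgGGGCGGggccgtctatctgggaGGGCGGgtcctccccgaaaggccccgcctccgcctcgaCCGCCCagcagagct

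Among these 8 genes TCACNCCAC was found in the window of SREBF2 alone, as TCACCCCAC from 133 to 125 bases before the start. This string occurs in 310 of 35116 promoter windows of that length, or 0.883%. SREBF2 also holds a CCAAT match on the opposite strand 106 to 102 bases before the start. STARD4 holds 2 CCAAT matches, and INSIG1 holds 1 on the opposite strand. CCAAT was found in 32.0% of all windows. An E-box lies 55 to 50 bases before the INSIG1 start, past the printed stretch, and another in the SCAP window, while 6.34% of all windows hold one. GGGCGG, present in 42.6% of windows, was found for each of the 8 genes but MBTPS1. The INSIG1 window has 5 such matches, of which a pair overlaps by 1 base. The SREBF1 window, before 1 RefSeq start, held GGGCGG alone, on both strands, and any other start of this gene was not searched. These are matches of letters and not measured binding sites. A gene without a match may use sites outside the window, or sites inside it that are spelled otherwise than the strings searched.

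SREBF2 (chromosome 22, 41833079 to 41907308, hg38) encodes SREBP-2. Its DMSO libraries held 10134, 10641 and 8703 normalized counts, and those under 22d 22875, 19748 and 20944. All 3 libraries under 22d lay above all DMSO libraries. The groups were apart in this way, with 22d above, for each of the 5 called genes and below for none, against 32.1% above and 33.3% below (65.4% in either direction) of all tested genes. The log2 fold change was 1.11 (SE 0.11, 95% interval 0.87 to 1.35, limma adjusted p = 3.3e-06).

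SREBF1 (chromosome 17, 17810399 to 17837002) encodes SREBP-1a and SREBP-1c, which counts per gene do not separate. Its DMSO libraries held 7431, 5329 and 4187 normalized counts and those under 22d 4896, 3875 and 4731. The groups overlapped, and DMSO replicate 1 was the highest of all 6 libraries. The log2 fold change was -0.30 (SE 0.17, 95% interval -0.67 to 0.07, limma adjusted p = 0.16). It depended on single DMSO libraries: without DMSO replicate 1 it was -0.08 (adjusted p = 0.69), and without DMSO replicate 3 it was -0.49 and passed (adjusted p = 0.019). Under quantile normalization it was 0.01.

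Both SREBP genes carry a miR-33 microRNA within their bounds and on their own strand, MIR33A in SREBF2 and MIR33B in SREBF1. Their mature 5p forms are printed to show that the seed (bases 2 to 8, in capitals) is the same in both.
hsa-miR-33a-5p: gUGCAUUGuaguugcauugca
hsa-miR-33b-5p: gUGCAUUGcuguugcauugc
miR-33 is known to repress the cholesterol exporter gene ABCA1. The table's MIR33A row held 0, 0 and 1.10 normalized counts under DMSO and 0, 0 and 1.68 under 22d, and both microRNA rows lay under the filter. These libraries were not made for small RNA, so the mature forms were not measured.

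SCAP (chromosome 3, 47413694 to 47477126), the sterol-sensing escort, stood at 3759, 4285 and 3344 normalized counts under DMSO and 3340.4, 3262 and 3669 under 22d. The groups overlapped, and the log2 fold change was -0.14 (SE 0.11, 95% interval -0.39 to 0.10, limma adjusted p = 0.29). MBTPS1 (chromosome 16, 84053761 to 84116906), which encodes the site-1 protease, had 1791, 1868 and 1757 normalized counts under DMSO and 1726, 1811 and 1671 under 22d. Its log2 fold change was -0.06 (SE 0.10, 95% interval -0.27 to 0.16, limma adjusted p = 0.64). For both genes a change of 2-fold in either direction lies outside the interval. The sign of both turned with the scaling: by library totals, SCAP was at 0.08 and MBTPS1 at 0.16, and under quantile normalization at 0.17 and 0.14.

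INSIG1 (chromosome 7, 155297776 to 155310235) encodes the INSIG protein that is itself made from an SREBP target gene. Its DMSO libraries held 2164, 1744 and 2101 normalized counts and those under 22d 14358, 11874 and 11175. The lowest library under 22d lay far above the highest under DMSO. The log2 fold change was 2.64 (SE 0.12, 95% interval 2.37 to 2.90, limma adjusted p = 1.5e-08), the 101st from the top among 13297 genes.

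INSIG2 (chromosome 2, 118088452 to 118110997), the second INSIG gene, was much less abundant. It held 121, 93.1 and 76.8 normalized counts under DMSO and 161, 177 and 172 under 22d. The groups did not overlap, and the libraries under 22d lay close together. The log2 fold change was 0.83 (SE 0.19, 95% interval 0.42 to 1.24, limma adjusted p = 0.0023). Its reads numbered 70 to 205 per library, against 1686 to 14687 for INSIG1.

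**Figure D1:**
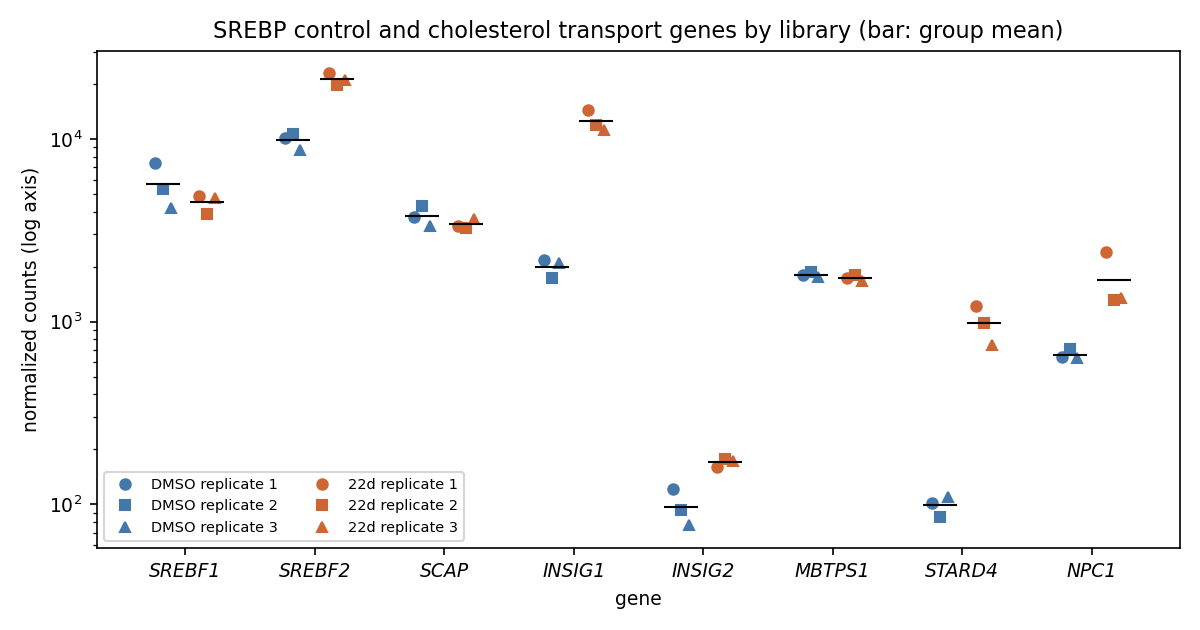
Normalized counts of the 8 genes (log axis) in each library, DMSO in blue and 22d in orange, the marker giving the replicate number and the bar the group mean. The groups are apart for SREBF2, INSIG1, INSIG2, STARD4 and NPC1 and overlap for SREBF1, SCAP and MBTPS1, and NPC1 has 1 library under 22d at 2399 against 1321 and 1339.8.

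STARD4 (chromosome 5, 111496033 to 111512590) had the largest rise of the 8. It held 102, 84.8 and 109 normalized counts under DMSO and 1225, 987 and 746 under 22d. Every library under 22d was higher than every DMSO library, and the spread within 22d was wide, 986 ± 239 (SD, n = 3) against 98.6 ± 12.3 (SD, n = 3). The log2 fold change was 3.29 (SE 0.18, 95% interval 2.90 to 3.68, limma adjusted p = 4.7e-08), the 28th from the top among 13297 genes.

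STARD4 shares 124 exon bases with STARD4-AS1 on the opposite strand, and the strand setting of the counting is not given in the sources used here, so reads of the overlap cannot be assigned to one of them. STARD4-AS1 held 105, 98.3 and 109.7 normalized counts under DMSO and 231, 197 and 212 under 22d, a log2 fold change of 1.02 (limma adjusted p = 1.2e-04). Its level under 22d was well under that of STARD4, but under DMSO, where STARD4 held 102, 84.8 and 109, the levels of the pair overlapped. What part reads of the overlap had in the STARD4 values was not tested.

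NPC1 (chromosome 18, 23506184 to 23586898) held 642, 704 and 634 normalized counts under DMSO and 2399, 1321 and 1339.8 under 22d. All libraries under 22d were above all DMSO libraries, and 22d replicate 1 stood apart from the other two. The log2 fold change was 1.30 (SE 0.19, 95% interval 0.89 to 1.70, limma adjusted p = 7.4e-05), and without that library it was 1.01 (adjusted p = 7.9e-06). The gene RMC1, listed as C18orf8, shares 604 exon bases with NPC1 on the opposite strand. It held 487, 471 and 485 normalized counts under DMSO and 927, 547 and 505 under 22d, so it too was highest in 22d replicate 1. Its log2 fold change was 0.40 and did not pass (limma adjusted p = 0.086). Whether reads of the overlap had a part in the NPC1 value of that library was not tested.

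SREBF1 likewise shares 556 exon bases with RAI1 on the opposite strand, which fell by 0.49 on the log2 scale (limma adjusted p = 0.0061). SREBF2 shares 280 with SREBF2-AS1, which was not analysed here.

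**Figure D2:**
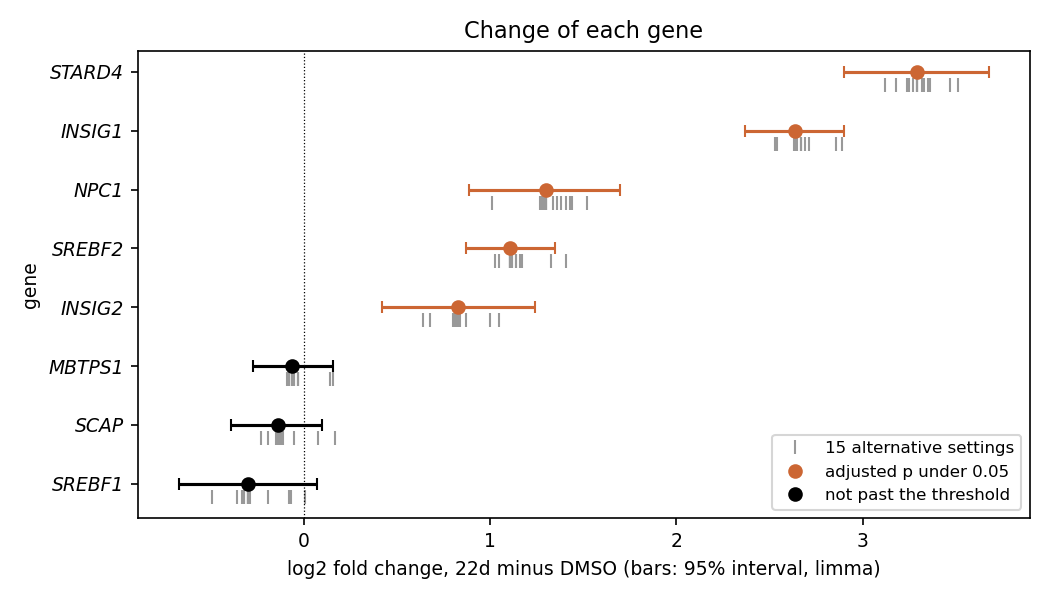
Log2 fold change of each gene, 22d minus DMSO, as points with 95% intervals from limma, and grey ticks for 15 alternative settings. The 5 orange genes stay to the right of 0 in every setting, from INSIG2 at 0.83 to STARD4 at 3.29, while the intervals of MBTPS1, SCAP and SREBF1 include 0, with SREBF1 at -0.30 and 1 of its ticks just above 0.

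Of the 5 genes called higher, 4 had their highest 22d value in 22d replicate 1, INSIG2 being the exception. The same was true of 2345 of all 3784 genes called higher, or 62.0%.

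The unequal changes within the system showed in ratios taken inside each library, which do not depend on library scaling. The log2 ratio of INSIG1 to INSIG2 was 4.15, 4.21 and 4.76 under DMSO and 6.47, 6.06 and 6.01 under 22d, a difference of 1.81, or a 3.50-fold larger ratio. The log2 ratio of INSIG1 to SCAP, the retention protein's transcript over that of the escort it holds, went from -0.80, -1.30 and -0.67 to 2.10, 1.86 and 1.61. INSIG1 reads were thus fewer than SCAP reads in each DMSO library and more in each library under 22d, a difference of 2.78. The log2 ratio of SREBF1 to SREBF2 was between -1.06 and -0.45 under DMSO, highest in replicate 1, and -2.22, -2.35 and -2.15 under 22d, a difference of -1.41. In none of the 3 ratios did the groups overlap. The exact two-sided permutation p was 0.10 for each, also adjusted over the 3 ratios, which is the smallest p that 3 against 3 libraries can give.

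**Figure D3:**
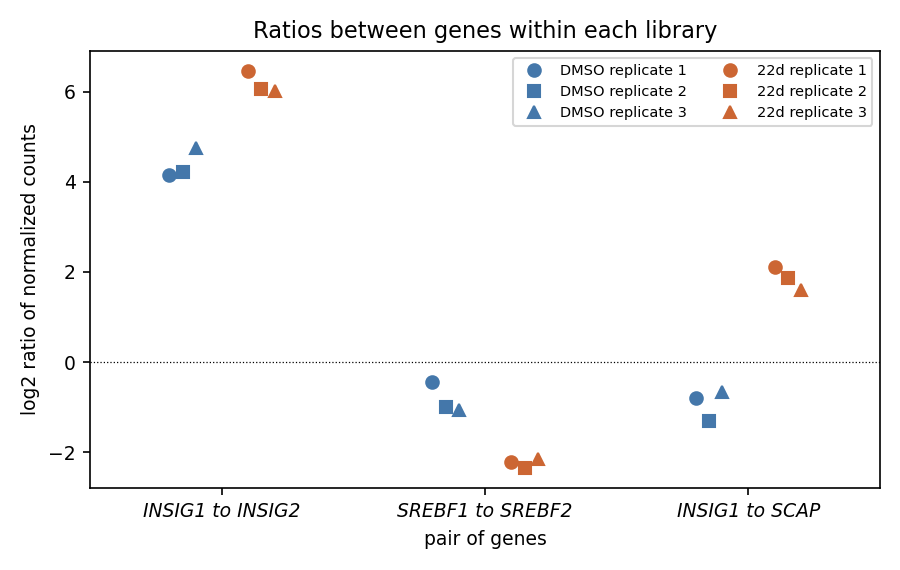
Log2 ratio of normalized counts for 3 pairs of genes in each library, DMSO in blue and 22d in orange, with markers for replicate numbers. INSIG1 to SCAP goes from between -1.30 and -0.67 under DMSO to between 1.61 and 2.10 under 22d. Counts are not divided by gene length, so the side of 0 on which a ratio lies depends on length too.

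Levels of different genes were compared per kilobase of merged exons in GENCODE 29, which may count exons these cells do not use. With DMSO, SREBF2 was the most abundant at 1300.2 ± 133 normalized counts per kilobase (SD, n = 3). SREBF1, SCAP and INSIG1 followed at 703 ± 205, 590.0 ± 73.3 and 549 ± 62.1 (SD, n = 3 each), and their libraries overlapped. MBTPS1 was at 176 ± 5.53 normalized counts per kilobase and NPC1 at 65.3 ± 3.81 (SD, n = 3 each). INSIG2 and STARD4 were lowest, with ranges of 19.4 to 30.5 and 14.9 to 19.1 normalized counts per kilobase, which came close without overlap.

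With 22d the order changed. INSIG1 was first at 3416 ± 458 normalized counts per kilobase and SREBF2 second at 2804 ± 209 (SD, n = 3 each); the lowest INSIG1 library, 3062, lay just above the highest SREBF2 library, 3027. SREBF1 and SCAP overlapped at 560.5 ± 68.3 and 532 ± 33.6 (SD, n = 3 each). STARD4, MBTPS1 and NPC1 stood at 174 ± 42.1, 169.6 ± 6.89 and 167 ± 61.1 normalized counts per kilobase (SD, n = 3 each) and did not differ beyond their spread. INSIG2 was now the lowest of the 8, at 43.1 ± 2.04 (SD, n = 3).

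Genes with the most similar pattern were found by the Euclidean distance of log2 values, centred on the DMSO mean, over the 6 libraries, among 10024 genes whose mean reached 100 normalized counts. CYP51A1 and LSS (each at a distance of 0.35) and SC5D (0.38) were nearest to INSIG1. FZD7 (0.06), C19orf35 (0.13) and RUFY3 (0.16) were nearest to SREBF2, and CITED2 (0.30), ZCCHC4 (0.31) and TMEM165 (0.37) to SREBF1. The log2 fold changes of these neighbours were 2.54 to 2.69 for INSIG1, 1.07 to 1.13 for SREBF2 and -0.34 to -0.31 for SREBF1. The neighbours of SREBF1, like SREBF1 itself, had a wider spread among the DMSO libraries than among those given 22d. Neighbours were chosen for closeness over these same 6 libraries, so likeness in fold change and in spread follows from the choice.

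Other genes of cholesterol uptake and transport moved in both directions, more of them up. Of 20 reported here, 19 were tested, 9 rose, 3 fell and 7 did not pass, with a median log2 fold change of 0.25. Among all tested genes 28.5% were called higher and 29.6% lower. TMEM97, whose product binds NPC1, rose by 1.23 (limma adjusted p = 3.6e-06), and NPC2, which hands cholesterol to NPC1 inside the lysosome, by 1.04 (limma adjusted p = 1.9e-05). GRAMD1A, which encodes a carrier of cholesterol from the plasma membrane to the endoplasmic reticulum, rose by 0.55 (limma adjusted p = 0.0016). MYLIP, a ubiquitin ligase that acts on lipoprotein receptors, fell by 0.75 (limma adjusted p = 7.9e-04). The HDL receptor gene SCARB1 fell by 0.48 (limma adjusted p = 0.0012), but not under quantile normalization (-0.17, adjusted p = 0.12). The apolipoprotein E receptor gene LRP8 fell by 0.46 (limma adjusted p = 0.0099), a call lost with scaling by library totals (-0.24, adjusted p = 0.14) and under quantile normalization (-0.25, adjusted p = 0.15).

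Partners in SREBP transport and INSIG turnover moved in both directions: 2 of 20 reported here rose, 7 fell and 11 did not pass, with a median of -0.04, against 28.5% higher and 29.6% lower among all tested genes. The split depended on scaling, with 4 higher and 3 lower by library totals and 2 higher and 4 lower under quantile normalization. VCP, the segregase that pulls proteins out of the endoplasmic reticulum membrane, fell by 1.06 (limma adjusted p = 3.8e-06), with means of 9597 ± 612 under DMSO and 4599.6 ± 468 under 22d (SD, n = 3 each). UFD1L, a cofactor of VCP, fell by 0.89 and ERLIN1, which encodes a sterol-binding membrane protein, by 0.83. SEC24B, of the coat of vesicles that leave for the Golgi, rose by 0.55 (limma adjusted p = 0.0083). FBXW7, which marks nuclear SREBPs for breakdown, rose by 0.37 (limma adjusted p = 0.034), a call lost without either DMSO replicate 1 (adjusted p = 0.15), DMSO replicate 2 (0.070), 22d replicate 2 (0.10) or 22d replicate 3 (0.072). The site-2 protease gene MBTPS2 averaged 366 ± 46.1 normalized counts under DMSO and 413 ± 56.2 under 22d (SD, n = 3 each) and did not pass, at 0.17 on the log2 scale.

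Among target enzymes of SREBP-2, 18 of 20 cholesterol synthesis genes rose, 1 fell and 1 did not pass, with a median of 1.96. MSMO1, HMGCS1 and DHCR7, enzymes of this pathway, had the largest rises, at 2.93, 2.92 and 2.88, a little above INSIG1 and below STARD4. PMVK fell by 1.05, and EBP did not pass. Of 13 fatty acid genes listed under SREBP-1, 9 rose, 0 fell and 4 did not pass, with a median of 0.77. The number called lower in this list was 1 under quantile normalization and 1 without 22d replicate 2. For both lists the shares to set beside these counts are 28.5% higher and 29.6% lower among all tested genes. ACSS2, which makes acetyl-CoA from acetate, rose by 2.25, the phosphatidate phosphatase gene LPIN1 by 1.83 and the desaturase gene FADS2 by 1.72. FASN, the fatty acid synthase gene, averaged 26432 ± 3235 normalized counts under DMSO against 31345 ± 2241 under 22d (SD, n = 3 each) and did not pass. These lists and the 8 genes were measured in the same 6 libraries.

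LXR receptors, which sense oxidised sterols, and cholesterol efflux genes numbered 1 higher and 2 lower of 6 tested among 8 listed, with a median of -0.19. With 28.5% of all tested genes called higher and 29.6% lower, these few calls do not set the list apart. The listed gene that rose was APOE, which encodes a lipoprotein component. It went from 13.7 to 23.8 normalized counts across the DMSO libraries to 45.6 to 119 across those given 22d. NR1H3, which encodes LXR alpha, fell by 0.51 and LPCAT3 by 0.32 (limma adjusted p = 0.024 and 0.030). Both calls were lost with scaling by library totals. They were also lost without any one of DMSO replicate 1, DMSO replicate 2, 22d replicate 2 or 22d replicate 3 (adjusted p = 0.057 to 0.17 without 1 library). Under quantile normalization NR1H3 kept its call (-0.63, limma adjusted p = 0.013) and LPCAT3 lost it (-0.15, adjusted p = 0.25). ABCA1 held 191, 76.5 and 70.2 normalized counts under DMSO and 179.9, 42.0 and 89.8 under 22d, with groups that overlapped.

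**Figure D4:**
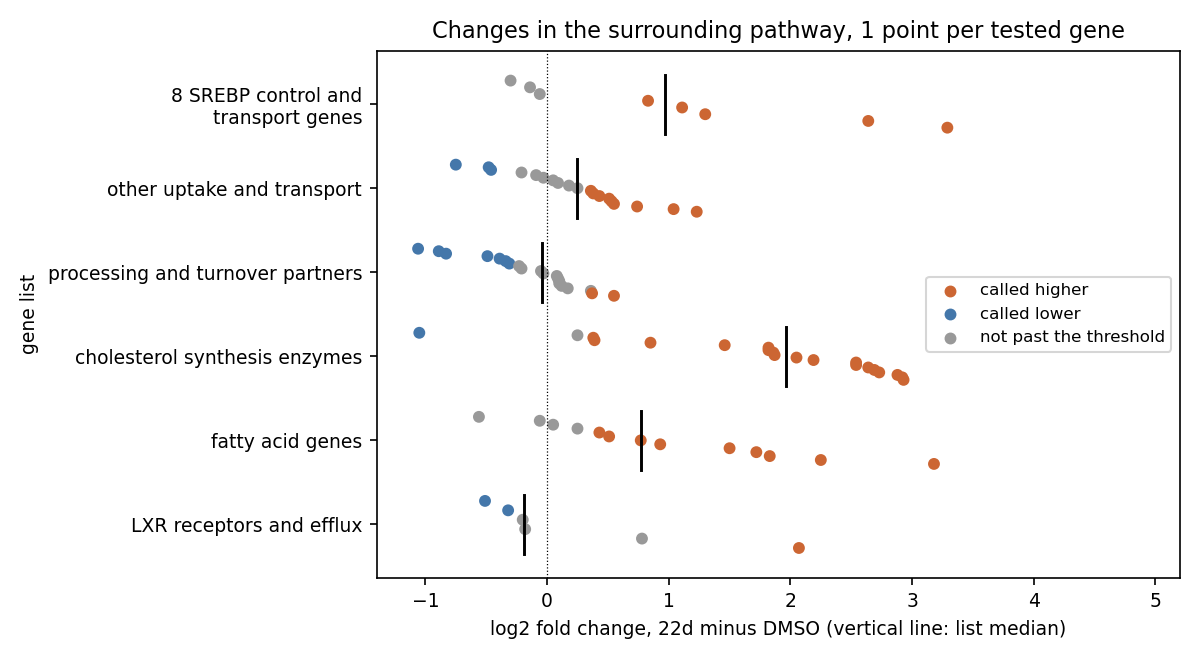
Log2 fold change, 22d minus DMSO, of each tested gene in the 8 SREBP control and transport genes and in 5 pathway lists, with called genes in colour and the list median as a line. Cholesterol synthesis enzymes lie furthest to the right with a median of 1.96, and processing and turnover partners are centred at -0.04.

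The libraries held 19995430 to 23749257 reads in genes, and reads fell in 16268 to 17055 genes in 5 libraries and in 19285 in 22d replicate 3. Of the 10 leukaemia and monocyte markers listed, all were detected. PTPRC, CSF1R, ITGAM and FLT3 rose (4 of 10) and LYZ and MPO fell (2 of 10), against 28.5% higher and 29.6% lower among all tested genes. The summed level of the 10 was 86090.1 to 106763 normalized counts under DMSO and 59324 to 71354 under 22d. Without LYZ, which was at 38415 to 56489 under DMSO and 11407 to 21870.1 under 22d, the sum of the other 9 was 46544 to 56498 and 47918 to 52681 normalized counts. Of 13 markers of other cell types, 3 (MS4A1, CD3D and COL1A2) were at 0 in all libraries, 4 were tested, and 2 of these (KRT8 and PECAM1) rose, the summed level being 633 to 799 under DMSO and 1032 to 1168 under 22d. In bulk RNA, a change in the make-up of the cells and a change in RNA per cell cannot be told apart, and the part of either marker list in these results was not tested.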

How the data were processed

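RNA-seq libraries of MV4-11 cells were grouped by the treatment label, 3 with DMSO and 3 with 22d. The tools named in the submitters' processing notes are STAR, HTSeq, cutadapt, FastQC and DESeq2, with build hg38; versions, annotation release, filters and strand setting are not given in the sources used here. The columns of the deposited table are, per the file headers, a normalized signal for each library, its mean, the authors' log2 fold change, its standard error and test score, and p-values. The authors' columns of results were not used for any call. Columns were matched to libraries by arm and number. The deposited signal is read counts over one size factor per library: divided by what 1 read is worth, 100% of them were whole (tolerance 0.001).

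limma 3.58.1 (R 4.3.3, trend) was fitted on log2(value + 1) of 13297 genes with a mean of at least 10. Folds on this scale understate the change of low genes. On the recovered whole reads, edgeR 4.0.16 (quasi-likelihood, TMM) called 3961 genes higher and 3762 lower, against 3784 and 3934 by limma. Alternatives also covered DESeq2 1.42.0, pseudocounts of 0.5 and 4, filters, scalings, a replicate block and leaving out each library. In data simulated for 22d against DMSO, 13203 genes were run and few of them were changed. There limma recovered 36.9% of 65 genes changed 1.5-fold, 85.1% of 67 changed 2-fold and 100% of 65 changed 4-fold. Of 157 calls, 7.01% were false. In the real data 58.0% of tested genes were called, a far larger share than was changed here, so these rates do not carry over to the real calls. Figures used matplotlib 3.10.9.

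Named genes were the 8 genes, the nearest 3 genes of INSIG1, SREBF1 and SREBF2, and up to 3 called genes of largest rise and of largest fall per pathway list with a mean of at least 100; others named (among them MBTPS2, FASN, ABCA1 and overlapping genes) were picked after their values were seen. The genes, lists, tests and rules were chosen with earlier results of these data known. Some genes of the pathway lists are not reported here, and list counts, medians and the naming rule are over the genes that are. Intervals cover the spread between libraries, counting error included.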

Additional observations from a re-analysis of the deposited data

How the results depend on the processing

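Under all 15 alternatives 5 of the 8 genes were called higher, and these were STARD4 (log2 fold change 3.12 to 3.51), INSIG1 (2.53 to 2.89), NPC1 (1.01 to 1.52), SREBF2 (1.03 to 1.41) and INSIG2 (0.64 to 1.05), the largest adjusted p being 0.012. The number called lower was 0 in each but one: with 1 library left out it ranged from 0 to 1, being SREBF1 without DMSO replicate 3. The sign turned for SREBF1 under quantile normalization (0.01), for SCAP by library totals (0.08) and quantile normalization (0.17), and for MBTPS1 likewise (0.16 and 0.14). Scaling by library totals moved the median of all genes to 0.22 and called 5278 genes higher and 2766 lower (65.6% higher), against 3784 and 3934 in the deposited scaling, so changes are relative to that scaling. The difference in log2 ratio kept its sign in each alternative tried for all 3 pairs. Deviations from the group means of same-numbered libraries correlated at -0.03, -0.02 and -0.10 across genes, and no 22d library correlated best with its own number. These values showed no sign of pairing by number, but with 3 libraries per group they cannot settle it, and the labels do not say. With the replicate block, 3649 genes were called higher and 3770 lower, and of the 8 genes 5 and 0, while FBXW7 did not pass (0.37, adjusted p = 0.061). INSIG2, with 70 to 205 reads per library, and STARD4, with as few as 82, had the lowest read counts of the 8. NPC1, with at least 564, had an SE as large as that of INSIG2 (0.19), so read depth alone does not set the precision.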
